A study of Homo sapiens with 10 samples.

Results

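The genes of the TRiC chaperonin were examined for HSF1 peaks in 6 chromatin immunoprecipitation libraries made from HCT116, a long-established cell line of human colon cancer. The 9 members are the 8 subunit genes TCP1, CCT2, CCT3, CCT4, CCT5, CCT6A, CCT7 and CCT8, and MRPL18, a mitochondrial ribosomal protein gene that lies back to back with TCP1. Members were chosen by gene name, and a peak was counted where it overlapped 5 kb either side of a stated hg19 gene start. This gave 8 windows of 10 kb, among 8124 peaks in the 6 lists. MRPL18 has no separate count because the same peak serves its window and that of TCP1. The cells were WT or FBXW7 KO. FBXW7 picks out the substrates of a ubiquitin ligase; how the KO line was made, and from how many clones, is not given in the sources used here. Untreated WT and untreated KO have 1 library each, and WT heat shock and KO heat shock (42 °C for 1 h) have 2 each. All 6 libraries came from the same HSF1 antibody, and each line and condition also has 1 library of input DNA.

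HSF1 is the transcription factor that switches on chaperone genes when proteins misfold. It binds as a trimer to inverted repeats of GAA, called heat shock elements. TRiC, also called CCT, is the chaperonin of the cytosol: a double ring whose rings each hold 8 different subunits, which closes over its clients and folds them with the energy of ATP. Actin and tubulin are its best known clients, and many are handed over by the prefoldin complex. The complex needs every subunit, so that separate genes provide the parts of a single machine. TCP1, CCT2, CCT4 and CCT5 encode the subunits with the higher affinity for ATP, and CCT3, CCT6A, CCT7 and CCT8 those with the lower.

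The promoters shown here are those of the members with a peak in every library (TCP1 with MRPL18, and CCT4), of CCT7, which had a peak in 5, and of CCT2, which had none. They are RefSeq sequences of GRCh38.p14, 250 bases before to 50 after a transcript's start, 5′ to 3′ on the gene's strand. Peaks are on hg19, so that no peak was placed on these letters. Of the 9 members, 8 matched an entry by symbol, with 12 entries in all; CCT6A did not. Capitals mark GAANNTTC or TTCNNGAA, the shortest pair of inverted heat shock element units.
TCP1, chr6:159789553-159789852, minus strand: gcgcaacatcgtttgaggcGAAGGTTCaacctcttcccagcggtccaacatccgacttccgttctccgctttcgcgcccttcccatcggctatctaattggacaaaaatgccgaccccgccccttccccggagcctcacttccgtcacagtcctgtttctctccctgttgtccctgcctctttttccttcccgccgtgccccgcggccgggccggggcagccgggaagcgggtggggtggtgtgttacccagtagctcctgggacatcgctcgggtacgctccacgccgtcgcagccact
MRPL18, chr6:159789853-159789916, plus strand, the 64 bases of its second entry that lie beyond the TCP1 entry: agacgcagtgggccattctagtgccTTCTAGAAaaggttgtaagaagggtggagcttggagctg
CCT4, chr2:61888607-61888906, minus strand: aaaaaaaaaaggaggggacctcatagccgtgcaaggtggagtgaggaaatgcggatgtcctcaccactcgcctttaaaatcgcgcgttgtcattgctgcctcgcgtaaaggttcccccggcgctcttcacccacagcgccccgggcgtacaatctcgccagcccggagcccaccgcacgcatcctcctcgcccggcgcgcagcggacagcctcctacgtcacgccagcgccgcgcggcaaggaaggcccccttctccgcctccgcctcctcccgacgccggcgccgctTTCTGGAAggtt
CCT7, chr2:73234058-73234357, plus strand: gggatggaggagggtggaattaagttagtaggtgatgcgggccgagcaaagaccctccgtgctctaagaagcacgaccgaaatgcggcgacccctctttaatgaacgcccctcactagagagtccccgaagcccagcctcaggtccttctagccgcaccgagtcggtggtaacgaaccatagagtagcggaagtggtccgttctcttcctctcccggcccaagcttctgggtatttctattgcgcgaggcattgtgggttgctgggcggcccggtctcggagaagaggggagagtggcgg
CCT2, chr12:69585639-69585938, plus strand, second of 2 entries: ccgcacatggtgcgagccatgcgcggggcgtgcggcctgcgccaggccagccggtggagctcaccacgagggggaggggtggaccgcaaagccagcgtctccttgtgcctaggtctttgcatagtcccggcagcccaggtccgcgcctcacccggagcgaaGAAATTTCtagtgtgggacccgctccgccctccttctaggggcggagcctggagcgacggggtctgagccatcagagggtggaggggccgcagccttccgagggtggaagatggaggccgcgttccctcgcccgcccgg

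TCP1 and MRPL18 share the match that reads GAAGGTTC on the TCP1 strand and GAACCTTC on the MRPL18 strand, 231 bases before the TCP1 start. A second match, TTCTAGAA, lies 52 bp from it on the MRPL18 side. In CCT4 the match TTCTGGAA begins 38 bases after the start and ends 4 bases before the end of the entry, so that a further unit beyond it could not be seen. CCT2 has GAAATTTC, beginning 89 bases before the start of its second entry. No match was found in these windows for CCT3, CCT5, CCT7 and CCT8. Both motifs read the same on either strand. The matches make up 4 distinct sites, of which that shared by TCP1 and MRPL18 recurs in 3 entries. By entry, 5 of 12 held a match, against 13.5% of all 35116 promoter entries of the same length. By gene, 4 of 8 members held one in any entry, or 3 of 7 with TCP1 and MRPL18 counted as 1, against 16.2% of all 27305 genes. A run of 3 such units, in alternating orientation and at the same spacing, contains both shorter motifs. It was searched on both strands and found in 0 of the 8 members and in 0.490% of all entries. In the entries searched, presence of letters did not order the members as the peaks did. CCT2 had a match and no peak, whereas CCT3, CCT5, CCT7 and CCT8 had peaks and no match. A match depended on the start taken: entry 1 of CCT2, entry 2 of CCT4 and entry 3 of MRPL18 held none. CCT5 has 1 entry, and whether it covers the sequence under the CCT5 peaks was not determined. The lack of a match in that entry therefore does not show that the sequence under those peaks lacks one.

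Of the 8 subunit genes, 7 carried an HSF1 peak in at least 1 library. In untreated WT, 2 of the 8 windows held a peak, at TCP1 and CCT4. In each WT heat shock replicate there were 3, at TCP1, CCT4 and CCT7. In KO, all windows except that of CCT2 held a peak when untreated (7 of 8) and in heat shock replicate 2 (7 of 8), and KO heat shock replicate 1 lacked CCT8 as well (6 of 8). The shares of all 295330 windows of 10 kb with a peak were 0.0315% in untreated WT, 0.0860% and 0.0515% for the WT replicates 1 and 2 after heat shock, 0.906% in untreated KO, and 0.500% and 1.05% in KO heat shock replicates 1 and 2. These windows were tiled between the first and the last peak of any list on each chromosome, without regard to gene starts, so that they are no promoter background. No window held more than 1 peak of a library.

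The site between TCP1 and MRPL18 had the strongest peak of the complex in each KO library. TCP1 encodes the founding subunit, CCT1. MRPL18 encodes a protein of the large mitochondrial ribosomal subunit that is also made in a cytosolic form under heat shock. Peak scores, which are the authors' own and depend on the unknown read depth, serve here mainly to order peaks within a list. Ratios of scores between lists are also given, beside the median ratio of shared regions. They do not measure a fold change in binding. The TCP1 score was 171.9 in untreated WT, 80.5 in WT heat shock replicate 1 and 73.7 in replicate 2. It was 1430.5 in untreated KO, 662.9 in KO heat shock replicate 1 and 1731.8 in replicate 2. Scores were higher in KO at shared sites in general. Over the 37 joined regions that every list shares, the median log2 ratio of the KO score to the untreated WT score was 3.26 in untreated KO and, after heat shock, 2.26 and 3.27 in its replicates 1 and 2. At TCP1 it was 3.06, 1.95 and 3.33, close to these medians. For the KO heat shock replicates this ratio mixes line and treatment, since its divisor is untreated WT. No ratio to WT heat shock was formed. With the 37 regions ordered by score, TCP1 stood at places 35 and 28 in WT heat shock replicates 1 and 2. In those of KO it stood at places 11 and 9. By rank the peak was number 11 of 79, 70 of 225 and 49 of 131 in the WT lists, and 12 of 2866, 15 of 1566 and 9 of 3257 in the KO lists. These ranks in whole lists depend on the length of each list and are not compared between the lines.

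CCT4 was the other subunit gene with a peak in all 6 libraries. It encodes the delta subunit. Its scores were 180.3 in untreated WT, 103.1 and 68.8 after heat shock in replicates 1 and 2 of that line, 1027.1 in untreated KO, and 463.8 and 870.7 in KO heat shock replicates 1 and 2. The log2 ratio of the KO score to the untreated WT score was 2.51, 1.36 and 2.27 (untreated KO, then heat shock replicates 1 and 2), each below the median of the shared regions just given. The ratios after heat shock again mix line and treatment. With the 37 shared regions ordered by score, CCT4 stood at places 29 and 30 in WT heat shock replicates 1 and 2. In those of KO it stood at places 23 and 26. As at TCP1, the untreated WT score was above both heat shock scores of that line. CCT4 stood above TCP1 in untreated WT and WT heat shock replicate 1 and below it in WT heat shock replicate 2 and every KO list. Its ranks were 9, 46 and 56 in the WT lists and 28, 31 and 38 in the KO lists, each in the order untreated, replicate 1, replicate 2.

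CCT7, CCT5 and CCT3 had a peak in all 3 KO libraries, each below TCP1 and CCT4. CCT7, the eta subunit gene, was the third and last to appear in WT, with scores of 66.8 and 59.0 in heat shock replicates 1 and 2 and no peak when untreated. These peaks ranked 119 of 225 and 76 of 131, and the median scores of their lists were 68.5 and 63.5. In KO its scores were 451.6 untreated and 248.9 and 685.2 after heat shock. CCT5, the epsilon subunit gene, had scores of 585.4, 174.7 and 859.6 in the same KO order and no peak in WT. CCT3, the gamma subunit gene, had 191.2, 211.4 and 393.4 and no peak in WT. The untreated value lay between the heat shock values for CCT7 and CCT5 and below both for CCT3. The order of CCT7, CCT5 and CCT3 differed between the KO heat shock replicates, with CCT5 above CCT7 in replicate 2 and below CCT3 in replicate 1.

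CCT6A had a peak in all 3 KO libraries, CCT8 in 2 of them, and CCT2 in none. CCT6A, the zeta subunit gene, scored 419.7 in untreated KO, 64.1 in KO heat shock replicate 1 and 115.5 in replicate 2. Both heat shock values were below the untreated value, and its rank went from 93 of 2866 to 572 of 1566 and 427 of 3257. CCT8, the theta subunit gene, scored 148.2 in untreated KO and 82.7 in KO heat shock replicate 2 and had no peak in replicate 1. For CCT2, the beta subunit gene, the nearest peak in the KO lists lay 153 kb (untreated), 363 kb and 480 kb (heat shock replicates 1 and 2) from the start, and in the WT lists at least 12.9 Mb away. A missing peak means a signal under the caller's limit, and does not show that HSF1 was missing there.

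**Figure D1:**
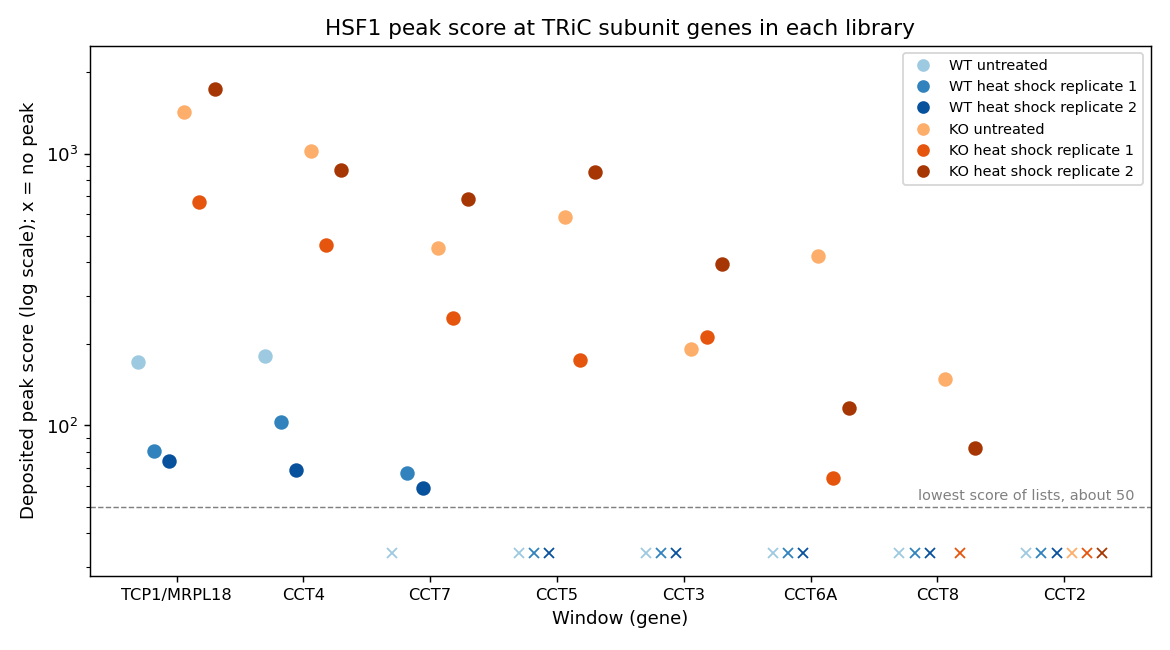
Deposited peak score (log axis) at the 8 windows in each of the 6 libraries, 1 point per library, with crosses below the dashed line for a library with no peak. KO points are orange and WT points blue. In median, KO scores were higher over the 37 shared regions as well. Whether scores of the lines share a common scale is not known. The genes CCT5, CCT3, CCT6A and CCT8 have KO points alone, and CCT2 has none.

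The peaks sat on the gene starts. Of the 28 peaks in the 8 windows, 26 covered the stated start itself, and the others ended or began 33 bp (CCT8, untreated KO) and 34 bp (CCT6A, KO heat shock replicate 2) from it. The starts are stated to the nearest 100 bp, so these gaps are within that rounding. Peak centres lay at most 246 bp from the start, with a median distance of 104 bp. At TCP1 all 6 centres fell 136 to 246 bp to the MRPL18 side, at chr6:160210670-160211222 for instance in KO heat shock replicate 1. The stated MRPL18 start was covered by the peak of untreated WT and of WT heat shock replicate 2 alone, and no KO peak reached it, the nearest ending 225 bp short. This holds for the stated start alone, since RefSeq also has MRPL18 transcripts that begin nearer to TCP1, and the RefSeq entry of which 64 bases are printed shares its other 236 bases with the TCP1 entry.

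WT peaks were wider than KO peaks at the same sites, as they were over the whole lists, where median widths were 1443 to 1656 bp in WT and 155 to 181 bp in KO. Whether the lines were called with the same settings is not given in the sources used here. The median width of the TCP1 peak was 1331 bp in WT and 590 bp in KO, a 2.26-fold difference, and the CCT4 and CCT7 peaks were 1.84-fold and 3.14-fold wider in WT. The peaks of all libraries at a gene nonetheless had bases in common: 501 bp at TCP1 and 645 bp at CCT4 over 6 peaks, and 361 bp at CCT7 over 5. The smallest common stretch was 103 bp, at CCT6A over 3 KO peaks. Its untreated peak spanned chr7:56119231-56119664, and the heat shock peaks spanned chr7:56119376-56119536 and chr7:56119434-56119728. In the RefSeq annotation a protein-coding gene on the opposite strand is the next one upstream of TCP1 (MRPL18), CCT3 (TSACC), CCT4 (COMMD1) and CCT7 (PRADC1), and TSACC and COMMD1 overlap their neighbour. A peak there cannot be given to either gene of the pair. The strand of the upstream neighbour was not determined here for CCT5 (ATPSCKMT) and CCT8 (MAP3K7CL), and no neighbour was sought for CCT6A, so that their peaks are not shown to belong to the subunit gene alone.

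**Figure D2:**
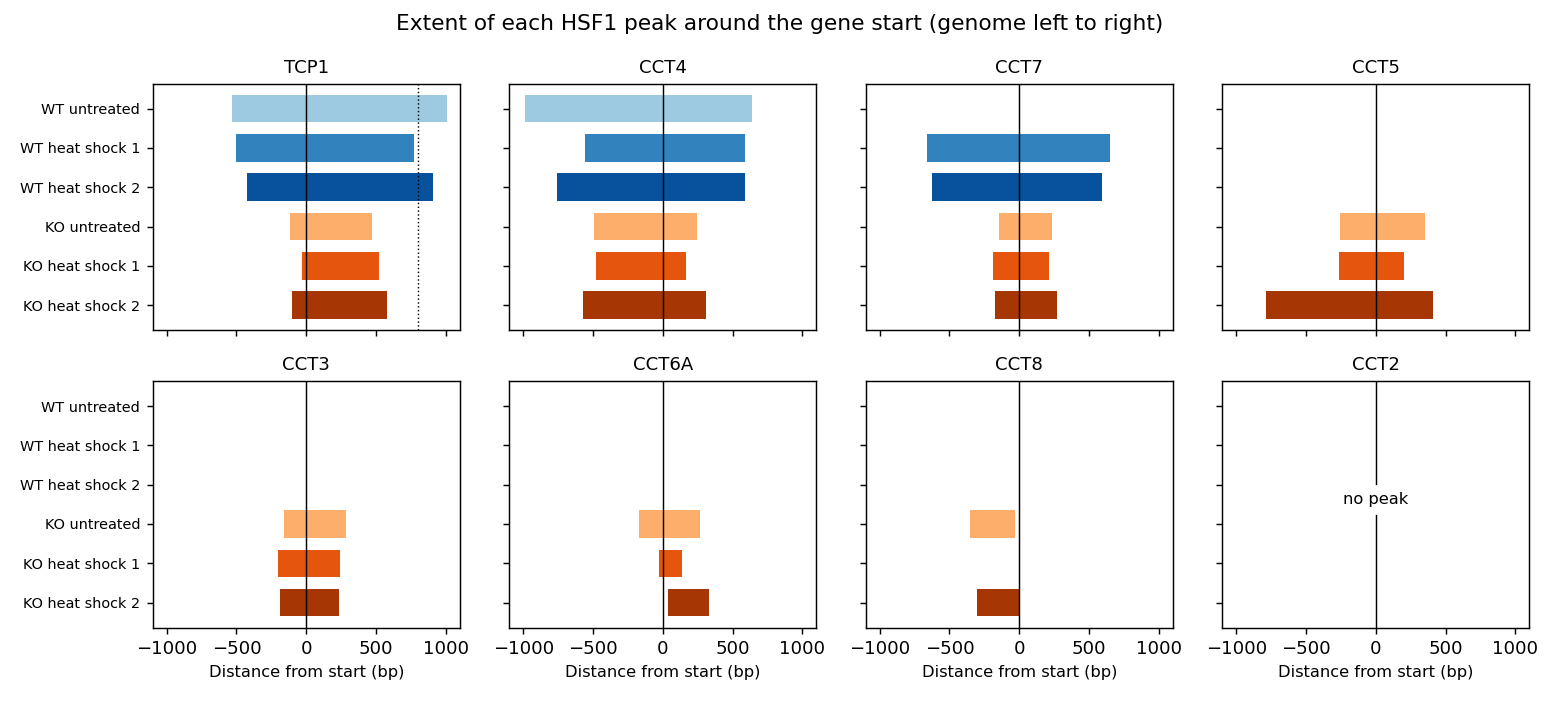
Extent of each peak in bp relative to the stated gene start (solid line at 0), in genome direction, 1 bar per library and 1 panel per gene; the dotted line in the TCP1 panel is the MRPL18 start. Bars of all libraries overlap at each gene, and the WT bars are the longer ones.

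After heat shock, KO had a peak at 4 windows where WT had none. These were CCT3, CCT5 and CCT6A, with a peak in both KO and neither WT replicate, and CCT8, with a peak in KO replicate 2. At no window did WT have a peak that KO lacked. Of all 10 kb windows, 0.0860% and 0.0515% held a peak in WT heat shock replicates 1 and 2. In those of KO the shares were 0.500% and 1.05%. The share of all windows with a peak in KO alone, or in WT alone, was not counted. With 2 libraries against 2, an exact permutation test (two-sided) cannot give a p below 0.333, and no test was made. The difference in windows went with the length of the lists, which held 225 and 131 peaks in WT and 1566 and 3257 in KO. When each list was held to its 79 highest-scoring peaks, the length of the shortest, WT heat shock replicates 1 and 2 had 2 and 3 windows with a peak and KO heat shock replicates 1 and 2 had 2 and 4. The ranges of the lines then overlapped. At this length, 0.0322%, 0.0312%, 0.0251% and 0.0291% of all 10 kb windows held a peak in these 4 libraries. TCP1 and CCT4 were among the 79 highest in every list, CCT7 in WT replicate 2 and KO replicate 2, and CCT5 in KO replicate 2. CCT3, CCT6A and CCT8 were in none of these. The CCT3 peak ranked 100 and 106 in KO heat shock replicates 1 and 2, just outside this length.

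Without heat shock, 5 further windows held a peak in KO, those of CCT3, CCT5, CCT6A, CCT7 and CCT8, beside TCP1 and CCT4 in both lines. Among the 79 highest-scoring peaks there were 3 windows in untreated KO (TCP1, CCT4 and CCT5) against 2 in untreated WT (TCP1 and CCT4), with 0.0274% and 0.0315% of all windows. There was 1 library per line, so this difference has no replicate check. Depth and the calling width cannot be told apart from the line.

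**Figure D3:**
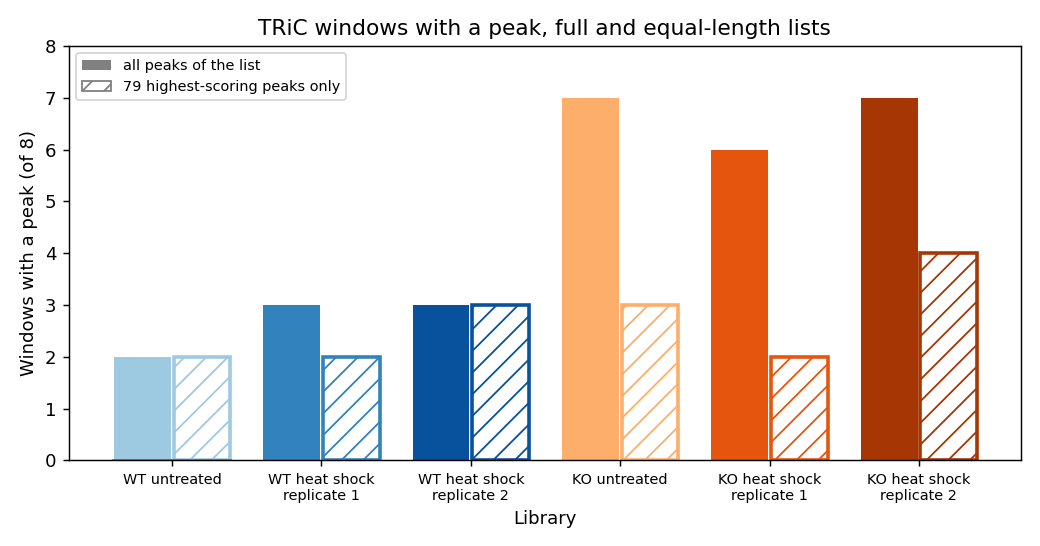
Number of the 8 windows with a peak in each library, from the whole list (filled bars) and from the 79 highest-scoring peaks of each list (hatched bars). Whole lists give 2 to 3 windows in WT and 6 to 7 in KO, and lists of equal length give 2 to 3 and 2 to 4.

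In WT, CCT7 had a peak in both heat shock replicates and not in the untreated library, while TCP1 and CCT4 scored lower than untreated. The untreated list was also the shorter, with 79 peaks against 225 and 131. With lists of 79 peaks each, CCT7 was in heat shock replicate 2 and not in replicate 1, and at a score of at least 100 it was in neither. A gain at CCT7 is therefore not shown. Ranks from lists of different length show no change, so the sites were also ordered among the 37 shared regions. TCP1 stood at place 10 of 37 in untreated WT and at places 35 and 28 in WT heat shock replicates 1 and 2. CCT4 stood at place 8 untreated and at places 29 and 30. Both thus went from the upper to the lower part of the shared regions, in each replicate. On the log2 scale, the heat shock score relative to the untreated score was −1.09 and −1.22 at TCP1 and −0.81 and −1.39 at CCT4, against medians of 0.61 and 0.14 over the 37 regions. At most 2 of the 37 regions had a lower value than either gene in a replicate. Every one of these ratios rests on the same single untreated WT library. In the KO lists the places were steady, at 12, 11 and 9 for TCP1 and 22, 23 and 26 for CCT4 (untreated, then heat shock replicates 1 and 2).

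In KO, the ratio of heat shock to untreated score differed between the subunit genes. Each ratio rests on the single untreated KO library, and the spread between libraries was not estimated. Among the 366 regions with a peak in all 3 KO lists, the log2 ratio of heat shock to untreated score had a median of −0.91 in replicate 1 and 0.04 in replicate 2. TCP1 (−1.11 and 0.28), CCT4 (−1.15 and −0.24) and CCT7 (−0.86 and 0.60) stayed within 0.56 of these medians. In replicate 2, CCT7 nonetheless lay above the upper quartile of 0.48, with 293 of the 366 regions lower, against 189 in replicate 1. CCT3 had 0.15 and 1.04, which is 1.05 and 1.00 above the median, with 321 and 334 of the 366 regions lower. CCT5 was below the median in replicate 1 (−1.74) and above it in replicate 2 (0.55).

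CCT6A was at the low end in both replicates. Its log2 ratios were −2.71 and −1.86, which is −1.80 and −1.90 relative to the median, with 8 and 1 of the 366 regions lower. Since these regions had to have a peak in each list, sites that dropped below the caller's limit are not among them. A count that keeps such sites was therefore made as well. There were 93 regions with an untreated KO score at least as high as that of CCT6A, which is by this choice the lowest of them. A low place of CCT6A among them after heat shock is thus partly set by the choice. All 93 had a peak in both heat shock lists. In replicate 1, 7 of them had a lower score than CCT6A, and in replicate 2 none did, where the median was 777 against its 115.5. The peak at CCT6A was also shorter after heat shock, 161 and 295 bp against 434 bp untreated. RefSeq lists pseudogene copies of this gene, among them CCT6P1 and CCT6P3 on the same chromosome; their part in the result was not tested. All of these ratios share the single untreated KO library.

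**Figure D4:**
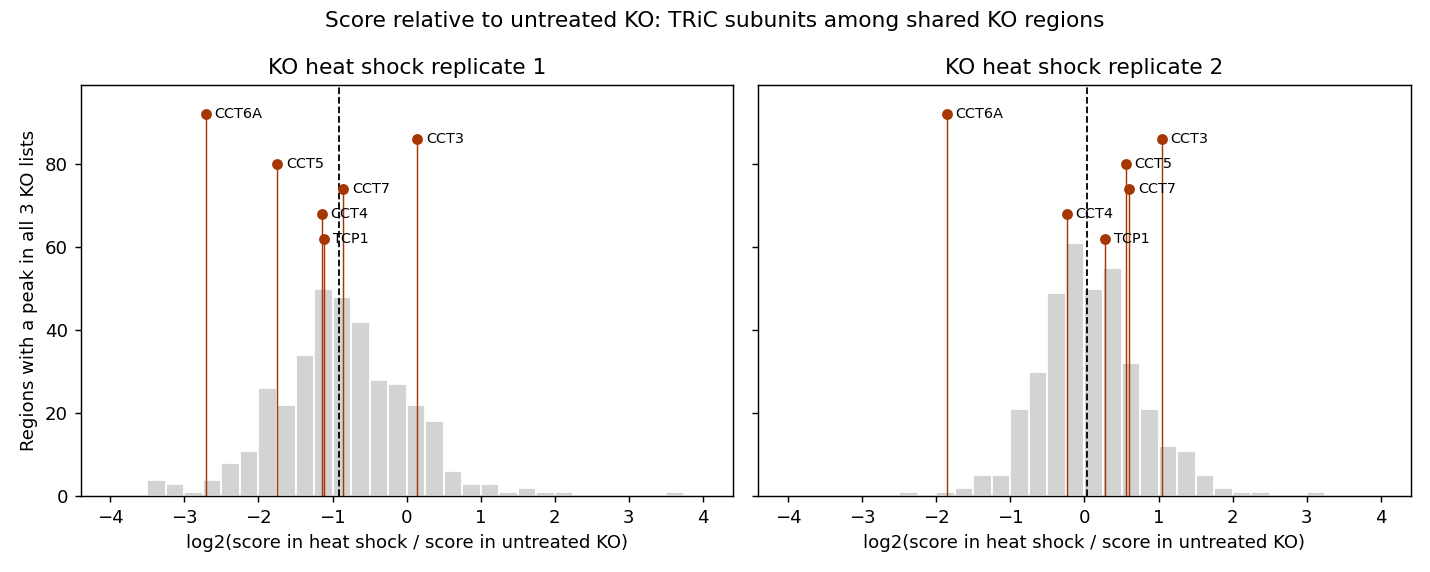
Histograms of the log2 ratio of heat shock to untreated KO score for the 366 regions with a peak in all 3 KO lists, 1 panel per heat shock replicate, with the 6 subunit genes among them marked (marker heights are set for legibility) and the median dashed. CCT6A lies at −2.71 and −1.86, near the low end of both panels, and CCT3 lies above the median in both.

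Partners and clients of TRiC were examined in the same way, at starts not checked against an hg19 annotation. None of the 6 prefoldin genes (PFDN1, PFDN2, VBP1, PFDN4, PFDN5 and PFDN6) held a peak within 5 kb of its start in any of the 6 lists, nor did CCT6B, the testis form of the zeta subunit. Since 0.0315% to 1.05% of all 10 kb windows held a peak in these lists, the lack of peaks at so few genes shows nothing particular to them. Of 8 actin and tubulin genes (ACTB, ACTG1, TUBA1A, TUBA1B, TUBA1C, TUBB, TUBB4B and TUBB6), 1 was hit in the untreated KO list and 1 in KO heat shock replicate 2. These were ACTB (score 59.3) and TUBA1B (score 58.1), with centres 3.9 and 4.3 kb from the start, whereas each subunit peak lay within 246 bp. With a background of 0.906% and 1.05% of 10 kb windows in these lists, 1 of 8 is a single weak peak in each case. No peak of these genes recurred in a second library.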

How the data were processed

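HSF1 ChIP-seq peak lists of 6 HCT116 libraries were used; 4 input libraries were not analysed here as such. The submitters' processing notes name CASAVA, Bowtie 0.12.7, MACS 1.4.2 and hg19 but give no role or setting. The deposited score of each peak is the authors' value; lists began at about 50, and its scale is not stated. No read depth was available from the lists used here, so depth is unknown and intervals were not formed. Groups came from sample titles; nothing says that replicates were separate cultures.

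A member had a peak if a peak overlapped 5000 bp either side of its start by at least 1 bp. Gene starts of the subunits came with the definition of the gene set, rounded to 100 bp; those of partner and client genes were entered from general knowledge and not checked against an hg19 annotation. All members, and partner or client genes with a peak, are named. Members and gene lists were chosen with earlier results of these data known, and the comparisons over 37, 366 and 93 shared regions were added after values were seen. Overlap counts were tested on simulated data against bedtools 2.31.1. Tools were pandas 2.3.3, numpy 2.4.6 and matplotlib 3.10.9 (Python 3.11.15).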

Additional observations from a re-analysis of the deposited data

How the results depend on the processing

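The number of windows with a peak was counted again with windows of 1000, 2500 and 10000 bp either side, with a peak required to cover the start, and by peak centre; of the 6 libraries, 6 stayed within 1.5 times the reported number under each. A score of at least 100 gave 1 and 0 windows in WT heat shock replicates 1 and 2. The 79 highest-scoring peaks gave 3 windows in untreated KO and 2 and 4 in KO heat shock replicates 1 and 2. Without the widest 5% of peaks, these numbers were 4, 2 and 4, because some of the TRiC peaks are among the widest of the KO lists. Requiring a peak in both replicates, or leaving out a heat shock replicate, kept KO heat shock between 6 and 7 windows and WT heat shock at 3. The number of windows with more KO than WT heat shock libraries was 4, and 3 with the replicate block, which compares the lines within each replicate number; 2 pairs are too few to show whether the numbers pair the samples. Depth is unknown, so a window without a peak limits nothing about occupancy.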
